A study of Rattus norvegicus with 9 samples.

Results

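The genes of B cell development and B cell receptor signalling are followed here through the tibias of ovariectomized and sham-operated rats. The set is a given list of 36 genes, of which 35 were found by symbol among the 22589 genes of the count files and all 35 passed the filter on low counts, which kept 14520 genes. The remaining gene, Il7r, which encodes a chain of the interleukin 7 receptor of B cell precursors, was not analysed for expression here. Left tibias of female Sprague-Dawley rats were freed of skin, muscle, ligament and tendon and their ribosome-depleted total RNA was sequenced, so that bone, cartilage, marrow and remaining soft tissue entered the same library. The RE/Ovx rats had both ovaries removed at an age of 10 weeks and climbed a ladder with a rising tail load during 12 weeks of resistance exercise. The NE/Ovx rats had the same ovariectomy at the same age and no exercise. The Sham rats lost only a little fat beside the ovary and did not exercise. All 9 rats, 3 per group, were sampled 24 weeks after the operation, and there was no sham-operated group that exercised.

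B cells are made in the bone marrow. Precursors cut and join their antibody genes with the RAG recombinase, display the first heavy chain with a surrogate light chain, and become mature cells that carry an antibody on the surface beside CD79A and CD79B, which pass its signal to kinases and adaptor proteins. Loss of ovarian oestrogen is known from rodents to enlarge the pool of B cell precursors in the marrow, and B lineage cells are among the sources of cytokines that act on osteoclasts. In bulk bone, fewer cells of a type and less RNA per cell cannot be told apart.

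The libraries held 12967456 to 14946389 counts in RE/Ovx rats, 13568808 to 16671533 in NE/Ovx rats and 12297992 to 15123988 in Sham rats. Levels are given as CPM, which are counts scaled to a common library size after normalization, and are compared between rats for the same gene. The defining B cell genes were present in every rat. These were Cd79a, Cd79b, Ms4a1 and Pax5, whose values in each rat are given below.

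The library of Sham rat 12 stood apart in these genes. Of the 35 members, 29 had their lowest level of the 9 rats in Sham rat 12, against 16.3% of all genes tested. NE/Ovx rat 6 held the highest level of 21 members, against 10.7% of all genes tested. For the counts, the medians and most members named below, values without Sham rat 12 stand beside those with it.

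**Figure D1:**
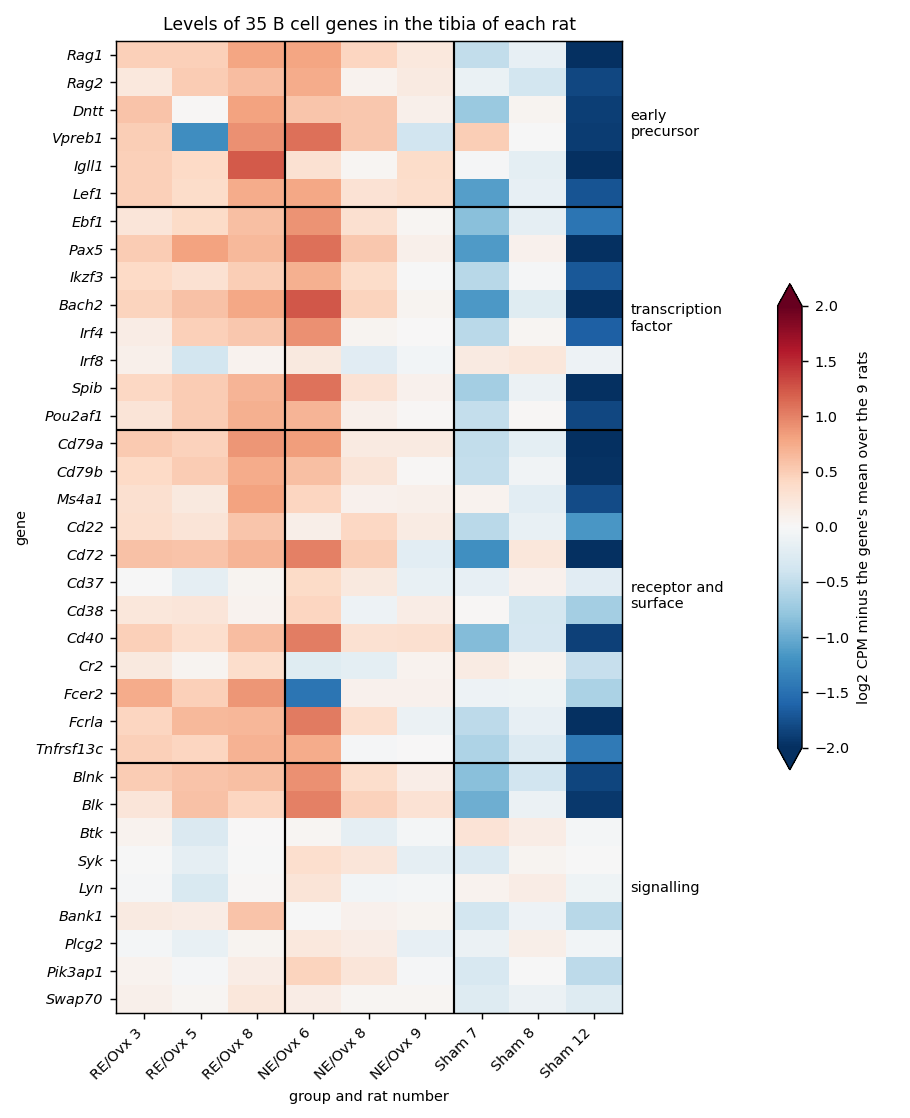
Level of each of the 35 members (a row per gene, grouped by role) in each of the 9 rats (columns), as log2 CPM minus the gene's mean over the 9 rats, with red above and blue below that mean and colours ending at 2 either way. The column of Sham rat 12 holds the lowest value of 29 of the 35 genes.

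Across the set, most members had higher levels in both ovariectomized groups than in Sham rats, and no member passed the test between exercised and non-exercised rats. In RE/Ovx against Sham, 9 of 35 members rose at an adjusted p under 0.05 by edgeR's quasi-likelihood test with Benjamini-Hochberg adjustment over all 14520 genes, and 0 fell, where 5% of all genes rose and 3.06% fell. The study called a gene by an unadjusted p of less than 0.05 together with a fold change over 1.2 or under 0.83. At these thresholds 27 members were higher and 0 lower, against 14% of all genes higher and 9.17% lower, and 25.6% of all genes had such a p in either direction. In 25 members the 3 RE/Ovx rats all lay above the 3 Sham rats, as they did in 14.9% of all genes. In NE/Ovx against Sham, 0 of 35 members passed the adjusted threshold by edgeR, against 1.03% of all genes higher and 0.2% lower. There 24 had an unadjusted p under 0.05, as 20.5% of all genes did. DESeq2 called 10 members in this comparison, and its share of all genes is not reported here. At the study's thresholds 24 members were higher and 0 lower, against 11.3% of all genes higher and 6.52% lower. In 21 members every NE/Ovx rat lay above every Sham rat, against 13.9% of all genes, and in 0 members below, against 11.4%. Between RE/Ovx and NE/Ovx, 0 of 35 members passed the adjusted threshold by edgeR and 0 by DESeq2, as 0% of all genes did by edgeR, and 1 member had an unadjusted p under 0.05, against 5.28% of all genes. Both comparisons with Sham share the same 3 Sham rats, so they are not independent.

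The median log2 fold change of the 35 members was 1.06 in RE/Ovx against Sham and 0.95 in NE/Ovx against Sham, beside -0.0078 and 0.0029 over all genes tested. Between RE/Ovx and NE/Ovx it was 0.048, beside 0.0079 over all genes. Without Sham rat 12 the medians were 0.71 in RE/Ovx against Sham and 0.56 in NE/Ovx against Sham, with 22 and 18 members higher at the study's thresholds, against 12.7% and 10.4% of all genes. Then 1 member, Btk, was lower at these thresholds in each comparison, at -0.28. In 20 of the 35 members every one of the 6 ovariectomized rats lay above every Sham rat, which held for 9.08% of all genes, and in 0 members did every one lie below, against 7.04%.

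The calls depended on single rats in either direction. Of the RE/Ovx rats, leaving out rat 3 gave 7 members called against Sham, where 8.2% of all genes were called higher. Leaving out rat 5 or rat 8 gave 0, against 0.538% and 0.457% of all genes. Of the Sham rats, leaving out rat 7 gave 0 members called in the same comparison, against 2.18% of all genes. Leaving out rat 8 gave 17, against 3.38% of all genes, and leaving out rat 12 gave 5, against 2.87%. In NE/Ovx against Sham, 9 members were called without Sham rat 8, against 1.09% of all genes, and 0 without any other rat, where 0.0477% to 0.557% of all genes were. There 12 rather than 24 were higher at the study's thresholds without NE/Ovx rat 6, and the share of all genes in that fit is not reported here.

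**Figure D2:**
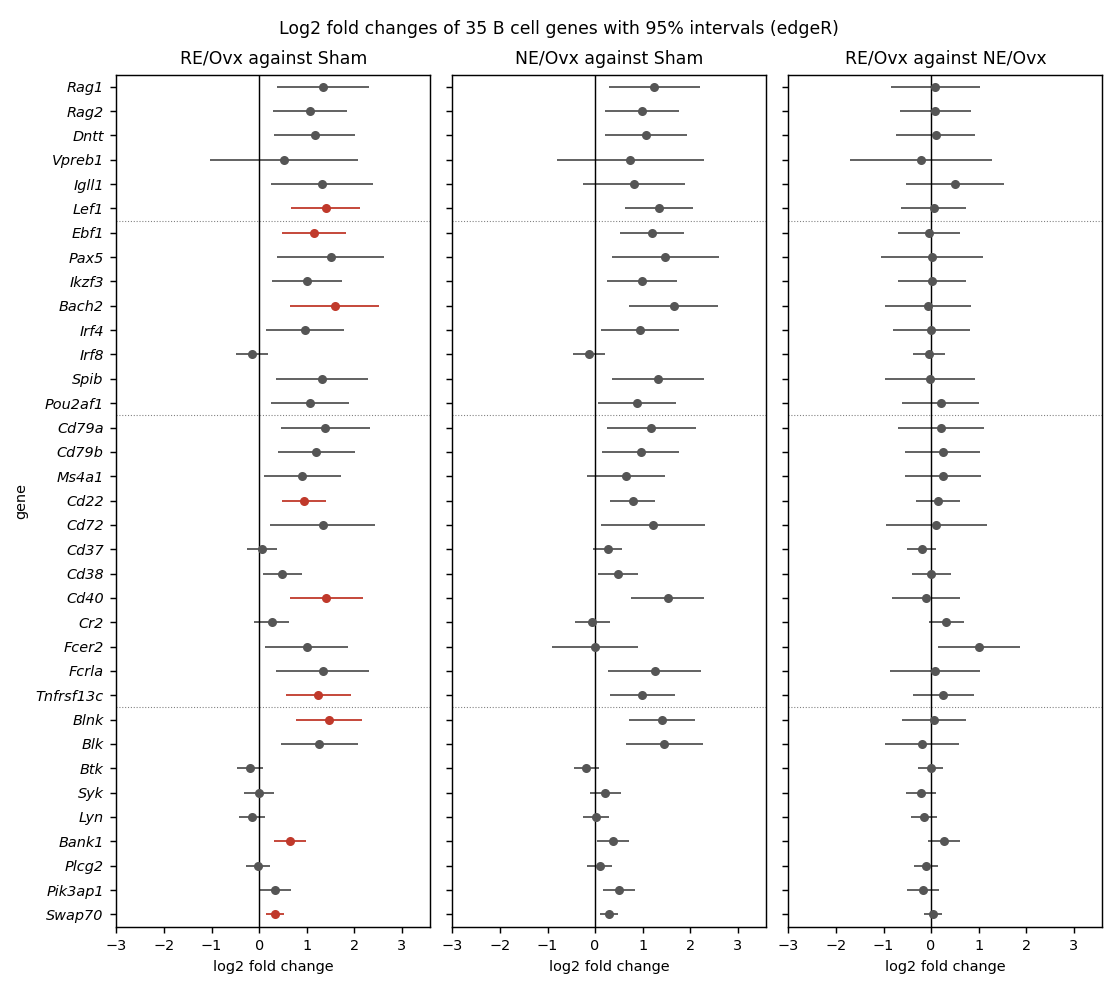
Log2 fold change of each member (points) with its 95% interval (bars) from edgeR, in RE/Ovx against Sham, NE/Ovx against Sham and RE/Ovx against NE/Ovx, with red for an adjusted p under 0.05. The 9 red points are all in RE/Ovx against Sham, and most other points of the comparisons with Sham lie to the right of 0.

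The earliest members act in the precursor stage. Rag1, which encodes the cutting subunit of the recombinase, had 129, 129 and 161 CPM in RE/Ovx rats, 160, 125 and 108 CPM in NE/Ovx rats and 66.4, 82.7 and 16.3 CPM in Sham rats. All 6 ovariectomized rats lay above all Sham rats, with Sham rat 12 far below the other two. The log2 fold change was 1.34 (SE 0.43, adjusted p = 0.0873 by edgeR) in RE/Ovx against Sham and 1.25 (SE 0.43, adjusted p = 0.152) in NE/Ovx against Sham, so neither passed. Without Sham rat 12 the spread was smaller and the RE/Ovx value passed, at 0.90 (SE 0.18, adjusted p = 0.0339), while the NE/Ovx value was 0.80 (adjusted p = 0.0810). Rag2, the partner subunit, had 20.5, 25.1 and 27.2 CPM in RE/Ovx rats, 29.8, 18.7 and 20.1 CPM in NE/Ovx rats and 16.1, 13.6 and 4.92 CPM in Sham rats. Its groups did not overlap either, and its log2 fold changes were 1.06 and 0.98 against Sham (SE 0.35 each, adjusted p = 0.0902 and 0.160). With Sham rat 12 left out they were 0.70 and 0.60.

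Dntt, whose product adds untemplated bases at the joints, had 39.0, 26.6 and 46.1 CPM in RE/Ovx rats, 38.6, 38.1 and 28.2 CPM in NE/Ovx rats and 15.7, 27.2 and 7.0 CPM in Sham rats. RE/Ovx rat 5 lay just below Sham rat 8, and every other ovariectomized rat lay above all Sham rats. Its log2 fold changes against Sham were 1.17 (adjusted p = 0.0922 by edgeR) in RE/Ovx and 1.07 (adjusted p = 0.161) in NE/Ovx, and 0.79 and 0.69 without Sham rat 12. Igll1, which encodes a surrogate light chain component, had 14.3, 13.5 and 24.3 CPM in RE/Ovx rats, 12.7, 10.6 and 13.3 CPM in NE/Ovx rats and 10.1, 8.95 and 1.58 CPM in Sham rats. The highest value was that of RE/Ovx rat 8, and no Sham rat reached any ovariectomized rat. The log2 fold changes were 1.33 (adjusted p = 0.118 by edgeR) in RE/Ovx and 0.82 (adjusted p = 0.370) in NE/Ovx, and 0.86 and 0.34 without Sham rat 12. Vpreb1, the other surrogate light chain component of the list, was measured on 4 to 50 counts per library and its groups overlapped. It had 2.35, 0.61 and 3.21 CPM in RE/Ovx rats, 3.67, 2.42 and 1.21 CPM in NE/Ovx rats and 2.34, 1.61 and 0.33 CPM in Sham rats, and a difference was not detectable at this depth (log2 fold changes of 0.52 in RE/Ovx and 0.74 in NE/Ovx against Sham, adjusted p = 0.698 and 0.585 by edgeR). These were 0.059 and 0.27 without Sham rat 12. Reads of Vpreb1 and Igll1 may be shared with similar immunoglobulin-like genes, so both values are uncertain.

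Lef1 is a transcription factor of Wnt signalling that precursors use to proliferate and that T cells use too. It was the only precursor member that passed the adjusted threshold by edgeR, in RE/Ovx against Sham. DESeq2 called Rag2, Dntt and Igll1 there as well (adjusted p = 0.0214, 0.0174 and 0.0369). Lef1 had 36.5, 33.8 and 44.3 CPM in RE/Ovx rats, 45.1, 32.0 and 33.5 CPM in NE/Ovx rats and 12.2, 23.5 and 7.83 CPM in Sham rats. No ovariectomized rat overlapped with a Sham rat, and Lef1 rose 2.63-fold in RE/Ovx (log2 fold change 1.39, SE 0.32, adjusted p = 0.0306 by edgeR). In NE/Ovx the log2 fold change was 1.34 (SE 0.32, adjusted p = 0.0739). The values with Sham rat 12 left out were 1.09 in RE/Ovx (adjusted p = 0.0504), which did not pass, and 1.03 in NE/Ovx. Over the 6 precursor members the median was 1.25 in RE/Ovx and 1.02 in NE/Ovx against Sham, and 0.83 and 0.65 without Sham rat 12.

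**Figure D3:**
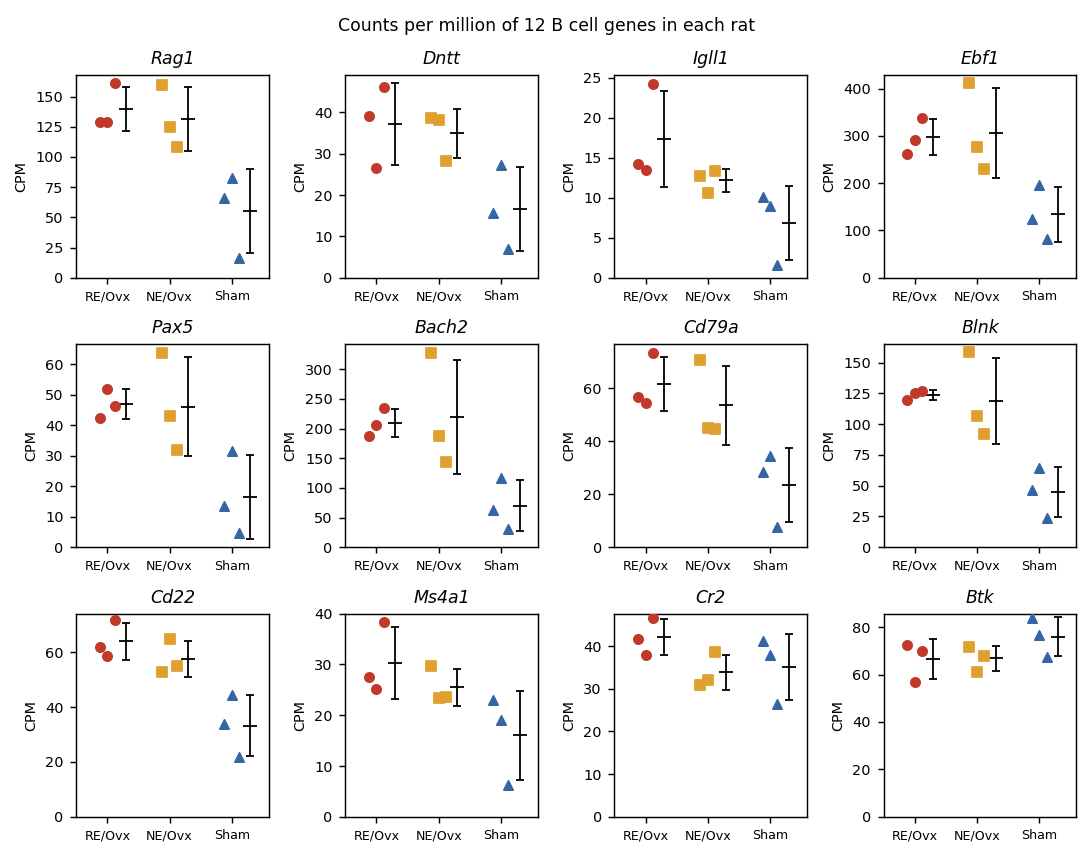
CPM of 12 members in each rat (points, RE/Ovx circles, NE/Ovx squares, Sham triangles), with the group mean and SD (bars, n = 3) beside them and every axis starting at 0. Rag1, Ebf1, Cd79a, Blnk and Cd22 show no overlap of ovariectomized with Sham rats, while Cr2 and Btk overlap.

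The promoters of 4 members are shown because they hold letters of motifs that B cell transcription factors are known to recognise. A promoter was found for 25 of the 36 members in RefSeq's table for the assembly GRCr8, which differs from the Rnor_6.0 build of the counts. A window of 300 bases around each start site, 250 before it and 50 after it, was searched on both strands. The octamer ATGCAAAT, to which Oct factors bind with the coactivator encoded by Pou2af1, was in 1.78% of all 33469 promoters and in 1 member, Blnk. The core of the Ebf1 site, CCCNNGGG, was in 12.4% of all promoters and in 5 members, and the E box CAGGTG in 18.8% and in 12 members. A match is a description of letters and not a bound site, and no matches overlapped in the 4 promoters shown. The 250 bases before the start site follow, 5′ to 3′, with the octamer in Blnk (chr1:249770534-249770783, minus strand), the Ebf1 core in Dntt (chr1:249805552-249805801, plus strand) and in Igll1 (chr11:97642937-97643186, plus strand), and the E box in Rag1 (chr3:108383185-108383434, minus strand) in capitals.
Blnk: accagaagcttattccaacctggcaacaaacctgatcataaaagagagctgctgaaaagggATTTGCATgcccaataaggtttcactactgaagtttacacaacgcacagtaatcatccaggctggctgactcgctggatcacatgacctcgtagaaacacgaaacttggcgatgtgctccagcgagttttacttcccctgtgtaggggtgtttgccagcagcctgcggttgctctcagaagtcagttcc
Dntt: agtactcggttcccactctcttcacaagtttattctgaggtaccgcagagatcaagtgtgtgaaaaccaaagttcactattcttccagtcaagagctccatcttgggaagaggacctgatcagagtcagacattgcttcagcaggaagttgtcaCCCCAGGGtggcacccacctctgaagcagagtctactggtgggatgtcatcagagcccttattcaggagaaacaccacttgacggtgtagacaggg
Igll1: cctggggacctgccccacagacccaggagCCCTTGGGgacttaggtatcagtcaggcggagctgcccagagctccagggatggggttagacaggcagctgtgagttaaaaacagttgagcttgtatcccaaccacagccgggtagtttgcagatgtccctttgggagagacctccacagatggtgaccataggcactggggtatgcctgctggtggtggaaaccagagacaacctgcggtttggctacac
Rag1: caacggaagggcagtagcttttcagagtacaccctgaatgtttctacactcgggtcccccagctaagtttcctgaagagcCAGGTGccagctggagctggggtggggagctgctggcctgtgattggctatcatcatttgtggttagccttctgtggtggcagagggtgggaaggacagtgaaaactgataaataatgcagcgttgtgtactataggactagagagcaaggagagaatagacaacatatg
The octamer of Blnk reads on the opposite strand, as ATTTGCAT, and starts 189 bases before the start site, the cores of Dntt and Igll1 start 96 and 221 bases before it, and the E box of Rag1 170 bases before it. Dntt holds an E box too, 39 bases after its start site and so outside the letters shown.

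Of the 8 transcription factor members, 2 rose in RE/Ovx and 7 were higher at the study's thresholds in each comparison with Sham. Ebf1, which opens the B cell programme, had 262, 291 and 339 CPM in RE/Ovx rats, 413, 277 and 229 CPM in NE/Ovx rats and 124, 196 and 81.1 CPM in Sham rats. The ovariectomized rats lay above the Sham rats without overlap, and Ebf1 rose 2.22-fold in RE/Ovx (adjusted p = 0.0441 by edgeR). In NE/Ovx its log2 fold change was 1.2 (SE 0.30, adjusted p = 0.0766). Marrow stromal and fat cells can express Ebf1 as well. Bach2, a repressor that holds B cells in the state before antibody secretion, had 188, 206 and 235 CPM in RE/Ovx rats, 328, 188 and 143 CPM in NE/Ovx rats and 62.3, 116 and 31.0 CPM in Sham rats. NE/Ovx rat 6 stood well above the other NE/Ovx rats, yet the groups did not overlap. Bach2 rose by 1.59 on the log2 scale in RE/Ovx (SE 0.42, adjusted p = 0.0482 by edgeR), and in NE/Ovx its value of 1.65, the highest of the 35 members there, had an adjusted p of 0.0823. Both calls were lost without Sham rat 12, where Ebf1 had 0.89 in RE/Ovx and 0.92 in NE/Ovx and Bach2 had 1.22 and 1.28, and that of Bach2 also without RE/Ovx rat 3.

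Pax5, which commits cells to the B lineage, had 42.3, 52.0 and 46.5 CPM in RE/Ovx rats, 63.6, 43.0 and 31.8 CPM in NE/Ovx rats and 13.5, 31.6 and 4.58 CPM in Sham rats. NE/Ovx rat 9 and Sham rat 8 were nearly level, and the log2 fold change of 1.5 in RE/Ovx (SE 0.51, adjusted p = 0.0964 by edgeR) did not pass. Spib, an Ets factor of B cells and plasmacytoid dendritic cells, had 181, 194 and 216 CPM in RE/Ovx rats, 288, 166 and 144 CPM in NE/Ovx rats and 84.4, 125 and 28 CPM in Sham rats. Again no ovariectomized rat reached down to a Sham rat, and the log2 fold changes were 1.31 in RE/Ovx and 1.33 in NE/Ovx. Ikzf3, Irf4 and Pou2af1, which act in later B cells and, for Irf4 and Pou2af1, in plasma cells, had log2 fold changes of 1.0, 0.96 and 1.08 in RE/Ovx against Sham, none of which passed the adjusted threshold. In RE/Ovx against Sham, values without Sham rat 12 were 1.06 for Pax5, 0.90 for Spib, 0.66 for Ikzf3, 0.61 for Irf4 and 0.70 for Pou2af1. Irf8, which myeloid cells and dendritic cells use as well, had 123, 89.1 and 121 CPM in RE/Ovx rats, 131, 99.1 and 111 CPM in NE/Ovx rats and 130, 135 and 107 CPM in Sham rats, with all groups overlapping.

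The receptor and surface members included both signalling chains. Cd79a had 56.9, 54.6 and 73.5 CPM in RE/Ovx rats, 70.9, 45.2 and 44.8 CPM in NE/Ovx rats and 28.3, 34.7 and 7.58 CPM in Sham rats. Cd79b had 60.2, 64.8 and 76.1 CPM in RE/Ovx rats, 69.3, 54.2 and 46.4 CPM in NE/Ovx rats and 32.6, 43.4 and 11.5 CPM in Sham rats. Both chains lay above Sham in all 6 ovariectomized rats, and their log2 fold changes in RE/Ovx against Sham were 1.39 and 1.2 (adjusted p = 0.0698 each by edgeR). Without Sham rat 12 both passed, at 0.96 (adjusted p = 0.0455) for Cd79a and 0.81 (adjusted p = 0.0461) for Cd79b. In NE/Ovx against Sham they had 1.18 and 0.95, and 0.75 and 0.56 without Sham rat 12, and did not pass.

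The 3 surface members that rose in RE/Ovx were Cd22, Cd40 and Tnfrsf13c. Cd22, an inhibitory coreceptor that binds sialic acid, had 61.9, 58.6 and 71.7 CPM in RE/Ovx rats, 52.9, 65.0 and 54.9 CPM in NE/Ovx rats and 33.7, 44.3 and 21.8 CPM in Sham rats. Its rats were close together within each ovariectomized group, and Cd22 rose 1.92-fold (log2 fold change 0.94, SE 0.21, adjusted p = 0.0284 by edgeR), and by 0.71 without Sham rat 12 (adjusted p = 0.0390). In NE/Ovx its log2 fold change was 0.79 (adjusted p = 0.0891). Cd40, the receptor through which T cells help B cells and which macrophages also carry, had 9.49, 8.64 and 10.5 CPM in RE/Ovx rats, 14.0, 8.44 and 8.55 CPM in NE/Ovx rats and 3.64, 5.32 and 1.75 CPM in Sham rats. It rose by 1.41 on the log2 scale in RE/Ovx (adjusted p = 0.0371), without overlap, and had 1.52 in NE/Ovx (adjusted p = 0.0651). Tnfrsf13c, the receptor for the survival factor BAFF, had 9.62, 9.32 and 11.2 CPM in RE/Ovx rats, 11.6, 6.78 and 6.91 CPM in NE/Ovx rats and 4.47, 5.72 and 2.5 CPM in Sham rats. It rose 2.37-fold in RE/Ovx (adjusted p = 0.0372) and its log2 fold change in NE/Ovx was 0.99. When Sham rat 12 was left out, Cd40 had 1.09 in RE/Ovx and 1.19 in NE/Ovx, Tnfrsf13c had 0.98 and 0.71, and neither was called.

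Among markers of mature B cells, the values were uneven. Ms4a1, which encodes CD20, had 27.5, 25.1 and 38.4 CPM in RE/Ovx rats, 29.7, 23.3 and 23.5 CPM in NE/Ovx rats and 23.0, 19.0 and 6.25 CPM in Sham rats. Sham rat 7 came close to the lowest NE/Ovx rats, and neither the log2 fold change of 0.91 in RE/Ovx (adjusted p = 0.152 by edgeR) nor that of 0.66 in NE/Ovx (adjusted p = 0.344) passed. These were 0.52 and 0.26 with Sham rat 12 left out. Cr2, the complement receptor CD21 of follicular and marginal zone B cells and, in rodents, of follicular dendritic cells, had 41.7, 38.1 and 46.6 CPM in RE/Ovx rats, 31.0, 32.0 and 38.6 CPM in NE/Ovx rats and 41.1, 38.0 and 26.4 CPM in Sham rats. Its groups overlapped in every comparison, and its 95% interval on the log2 scale was -0.11 to 0.63 in RE/Ovx against Sham and -0.42 to 0.31 in NE/Ovx against Sham. Its log2 fold changes without Sham rat 12 were 0.085 and -0.24. Fcer2, the low-affinity IgE receptor CD23, was among the lowest members, with 4.58, 3.74 and 5.01 CPM in RE/Ovx rats, 0.88, 2.84 and 2.85 CPM in NE/Ovx rats and 2.48, 2.5 and 1.67 CPM in Sham rats. RE/Ovx rats lay above both other groups, and the log2 fold changes against Sham were 1.0 in RE/Ovx (SE 0.39, adjusted p = 0.143 by edgeR) and -0.010 in NE/Ovx (adjusted p = 0.991), and 0.83 and -0.19 without Sham rat 12.

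The remaining surface members were Cd72, Fcrla, Cd38 and Cd37. Cd72, an inhibitory coreceptor, and Fcrla, an intracellular Fc receptor-like protein of B cells, had log2 fold changes of 1.33 each in RE/Ovx and of 1.23 and 1.25 in NE/Ovx against Sham. Leaving out Sham rat 12 gave 0.93 and 0.92 in RE/Ovx and 0.81 and 0.82 in NE/Ovx. For Cd72, Sham rat 8 at 94.4 CPM overlapped with NE/Ovx rats, whose lowest value was 69.5 CPM. Cd38, an ectoenzyme, and Cd37, a tetraspanin, are carried by many blood cells and had log2 fold changes of 0.49 and 0.062 in RE/Ovx against Sham. The 10 members listed as mature B cell genes were Ms4a1, Cr2, Fcer2, Cd22, Cd40, Tnfrsf13c, Bank1, Spib, Cd72 and Cd37. Of these, 4 rose in RE/Ovx, namely Cd22, Cd40, Tnfrsf13c and Bank1. The median of the 10 was 0.97 in RE/Ovx and 0.72 in NE/Ovx against Sham, and 0.77 and 0.40 without Sham rat 12.

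Of the 9 signalling members, the adaptor Blnk had the smallest p of the whole set. Blnk, which links SYK to downstream enzymes, had 120, 125 and 127 CPM in RE/Ovx rats, 158, 107 and 91.7 CPM in NE/Ovx rats and 46.8, 64.4 and 23.5 CPM in Sham rats. The RE/Ovx rats were within a few CPM of each other and every ovariectomized rat stood above every Sham rat. Blnk rose 2.76-fold in RE/Ovx (log2 fold change 1.46, SE 0.31, adjusted p = 0.0237 by edgeR), and by 1.15 without Sham rat 12 (adjusted p = 0.0327). In NE/Ovx its log2 fold change was 1.4 (SE 0.31, adjusted p = 0.0596). Blk, a Src kinase of B cells, had 40.1, 50.9 and 45.4 CPM in RE/Ovx rats, 68.3, 46.3 and 41.4 CPM in NE/Ovx rats and 17.1, 31.1 and 8.75 CPM in Sham rats. Its groups were likewise apart, with log2 fold changes of 1.26 (adjusted p = 0.0610) in RE/Ovx and 1.45 (adjusted p = 0.0766) in NE/Ovx, and 0.91 and 1.09 without Sham rat 12.

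Smaller differences were seen in Bank1 and Swap70. Bank1, a B cell scaffold protein, had 31.0, 30.1 and 40.6 CPM in RE/Ovx rats, 27.0, 28.9 and 28.3 CPM in NE/Ovx rats and 21.0, 25.4 and 18.4 CPM in Sham rats. It rose 1.57-fold in RE/Ovx (adjusted p = 0.0306 by edgeR). Swap70, which is known for its part in B cell activation and movement and is also found in osteoclasts, had 85.7, 82.2 and 93.4 CPM in RE/Ovx rats, 88.6, 82.3 and 82.1 CPM in NE/Ovx rats and 66.8, 73.5 and 66.7 CPM in Sham rats. Its rats differed little within a group, and it rose 1.26-fold in RE/Ovx (adjusted p = 0.0397). Both calls were lost without Sham rat 12, where Bank1 had 0.54 and Swap70 0.31, and that of Swap70 also without RE/Ovx rat 3.

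The kinases and enzymes that myeloid cells share with B cells had overlapping groups in every comparison. Syk, the kinase that binds to the CD79 chains, had 472, 419 and 475 CPM in RE/Ovx rats, 604, 561 and 422 CPM in NE/Ovx rats and 395, 496 and 475 CPM in Sham rats. Btk, a kinase downstream of it, had 72.7, 56.9 and 69.8 CPM in RE/Ovx rats, 71.6, 61.2 and 67.9 CPM in NE/Ovx rats and 84.1, 76.6 and 67.5 CPM in Sham rats. All 3 groups overlapped in both genes. The 95% intervals of the log2 fold change in RE/Ovx against Sham were -0.32 to 0.32 for Syk, -0.46 to 0.073 for Btk, -0.42 to 0.13 for the kinase Lyn and -0.27 to 0.23 for the phospholipase Plcg2. Pik3ap1, an adaptor for PI3 kinase, had log2 fold changes of 0.34 in RE/Ovx and 0.51 in NE/Ovx against Sham, with overlapping groups.

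Split by a list of genes shared with other blood cells, which leaves out Spib although plasmacytoid dendritic cells use it, the 21 members not on the list had median log2 fold changes of 1.2 in RE/Ovx and 0.99 in NE/Ovx against Sham. The 14 listed members had 0.34 and 0.38. Of the 21, 5 rose in RE/Ovx and 20 were lowest in Sham rat 12, and of the 14, 4 rose and 9 were lowest in that rat. Of all genes tested, 5% rose in RE/Ovx and 16.3% were lowest in that rat. Without Sham rat 12 the medians were 0.86 and 0.69 for the 21 members and 0.26 and 0.28 for the 14. Per length, as FPKM averaged over the 9 rats, the listed members Syk, Cd37 and Lyn stood at 90.3, 61.7 and 59.2, next to Cd72 at 65.1 and Spib at 47.1, and the lowest members were Vpreb1 at 2.5 and Fcer2 at 1.48. The spread over rats was widest for Igll1, whose highest FPKM was 16.4 times its lowest, and narrowest for Plcg2, at 1.32 times. The factor without Sham rat 12 was 2.85 for Igll1 and was widest for Vpreb1, at 5.97.

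Set against the CD79 chains in the same rat, members differed in how far their proportion varied. The ratio of Rag1 to Cd79a counts was 2.27, 2.36 and 2.19 in RE/Ovx rats, 2.26, 2.77 and 2.41 in NE/Ovx rats and 2.35, 2.39 and 2.14 in Sham rats. Sham rat 12 was the lowest, by little, although its Rag1 and Cd79a levels were each far below those of the other rats. Its ratio of Cd79a to Cd79b counts was low too, at 0.66, where the other rats had 0.80 to 1.02. Against the mean of both chains the log2 ratio of Rag1 was 0.80 in Sham rat 12 and 1.09 to 1.34 in the other rats. The ratio of Cr2 to Cd79a counts was 0.73, 0.70 and 0.63 in RE/Ovx rats, 0.44, 0.71 and 0.86 in NE/Ovx rats and 1.45, 1.10 and 3.48 in Sham rats. For Ms4a1 to Cd79a counts the ratio was 0.48, 0.46 and 0.52 in RE/Ovx rats and 0.42, 0.52 and 0.53 in NE/Ovx rats. In Sham rats it was 0.82, 0.55 and 0.82. In both the Cr2 and the Ms4a1 ratio every Sham rat lay above every ovariectomized rat, for Ms4a1 by little. The log2 ratio to the mean of Cd79a and Cd79b spanned least over the 9 rats, apart from the CD79 chains themselves, for Fcrla, at 0.53, Rag1, at 0.54, Pou2af1, at 0.55, and Spib, at 0.56. It spanned 1.09 for Ebf1, 1.63 for Cd22 and 2.36 for Bank1, and 2.68 for Cr2, 2.95 for Btk, 3.0 for Syk and 3.83 for Fcer2. The median span was 0.97 for the 19 members that are neither on the list of genes shared with other blood cells nor CD79 chains and 2.42 for the 14 listed members, and 0.80 and 1.06 without Sham rat 12. These ratios are compared between rats only and were given no test.

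**Figure D4:**
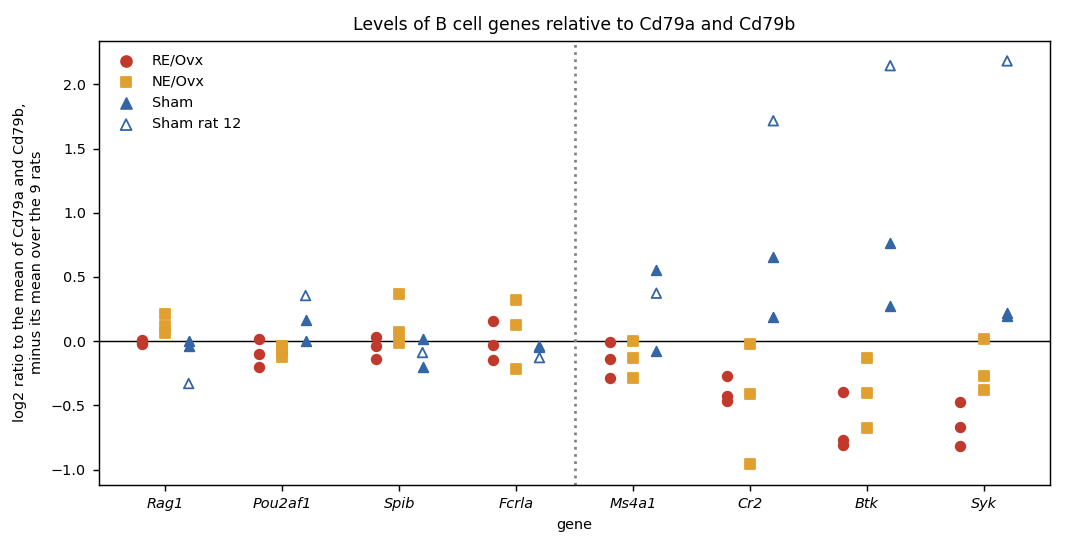
Log2 ratio of 8 members to the mean of Cd79a and Cd79b in each rat, minus its mean over the 9 rats (RE/Ovx circles, NE/Ovx squares, Sham triangles, with Sham rat 12 hollow). Rag1, Pou2af1, Spib and Fcrla span 0.53 to 0.56, while Cr2, Btk and Syk span 2.68 to 3.0 with Sham rat 12 on top.

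Precursor and mature members were next set side by side in each rat, each as the mean log2 CPM of its genes centred on the 9 rats. The precursor level minus the mature level was 0.075, -0.20 and 0.26 in RE/Ovx rats, 0.40, 0.14 and 0.084 in NE/Ovx rats and 0.10, -0.055 and -0.82 in Sham rats. The groups overlapped, and the value of Sham rat 12 was the only one outside the range of the ovariectomized rats. Every gene of a list had equal weight, including Vpreb1, with 4 to 50 counts per library. The mature list held Bank1, Cr2, Cd37 and Fcer2, whose log2 ratios to the CD79 chains spanned 2.36 to 3.83 over the rats. The part of these genes in the differences was not tested. Both lists were lower in Sham rats, with precursor levels of 0.085 to 0.85 in RE/Ovx, 0.14 to 0.71 in NE/Ovx and -2.07 to -0.14 in Sham rats, and mature levels of 0.28 to 0.59 in RE/Ovx, 0.054 to 0.31 in NE/Ovx and -1.25 to -0.090 in Sham rats. Within the mature list, Cr2 and Fcer2 had log2 fold changes of -0.055 and -0.010 in NE/Ovx against Sham, where 8 of the 10 genes were above 0.

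Resistance exercise was compared among ovariectomized rats, where no member passed the adjusted threshold. Fcer2 was the only member at the study's thresholds, with the values given above and no overlap of RE/Ovx and NE/Ovx rats. Its log2 fold change in RE/Ovx against NE/Ovx was 1.01 (SE 0.39, unadjusted p = 0.0264 and adjusted p = 0.924 by edgeR), and 1.54% of all genes were higher and 3.15% lower at those thresholds. It rested on few counts, and it was not at the thresholds without RE/Ovx rat 3, RE/Ovx rat 8 or NE/Ovx rat 6. Without NE/Ovx rat 9, 2 members were there, and the share of all genes in that fit is not reported here. Without Sham rat 12, 3 members were there, against 2.13% of all genes higher. These were Igll1, Cr2 and Fcer2 (unadjusted p = 0.0437, 0.0211 and 0.0272 by edgeR). With all rats in the fit, Cr2 had a log2 fold change of 0.32 (95% interval -0.051 to 0.68), Bank1 of 0.27 (-0.056 to 0.60) and Syk of -0.22 (-0.54 to 0.10). Among the precursor genes the log2 fold changes had wide intervals, at 0.092 for Rag1 (-0.85 to 1.04), 0.089 for Rag2 (-0.66 to 0.84), 0.094 for Dntt (-0.74 to 0.92), 0.51 for Igll1 (-0.52 to 1.54) and -0.22 for Vpreb1 (-1.71 to 1.28). The sign of 4 of these turned with the rats left out: without RE/Ovx rat 8 the values were -0.030 for Rag1, -0.0070 for Rag2 and -0.097 for Dntt, and without NE/Ovx rat 9 -0.017 for Rag1 and -0.029 for Dntt. Rag2 had -0.037 without NE/Ovx rat 8, and Vpreb1 had 0.21 without RE/Ovx rat 5 and 0.20 without NE/Ovx rat 6. Ms4a1 had 0.25 (-0.54 to 1.05). In 3 members every RE/Ovx rat lay above every NE/Ovx rat, namely Igll1, Fcer2 and Bank1, which held for 4.75% of all genes, and in 0 members did they all lie below, against 6.84%.

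Other genes of B cell development were followed in a list of 30, of which 28 were tested. Against Sham, 8 of them rose and 1 fell in RE/Ovx, and 1 rose in NE/Ovx. Foxo1, a transcription factor that drives Rag expression and is found in many tissues, rose in both, by 1.04 on the log2 scale in RE/Ovx (adjusted p = 0.0172 by edgeR) and by 1.01 in NE/Ovx (adjusted p = 0.0403). It had 48.3, 56.9 and 67.5 CPM in RE/Ovx rats, 64.9, 59.1 and 45.9 CPM in NE/Ovx rats and 32.6, 30.6 and 20.7 CPM in Sham rats, without overlap. Id3, an inhibitor of E proteins, rose by 0.70 in RE/Ovx (adjusted p = 0.0154), and Vpreb2, a further surrogate light chain gene, by 1.96 (adjusted p = 0.0211). Leaving out Sham rat 12, 6 genes of the list rose and 0 fell in RE/Ovx, these 3 among them, and 0 passed in NE/Ovx, where Foxo1 had 0.82 (adjusted p = 0.0698). Vpreb2 was low, at 3.16, 2.6 and 4.50 CPM in RE/Ovx rats, 2.64, 2.42 and 2.67 CPM in NE/Ovx rats and 0.69, 1.45 and 0.50 CPM in Sham rats.

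Of 29 further genes of B cell receptor signalling that were tested, 2 rose and 1 fell in RE/Ovx against Sham, and 2 rose in NE/Ovx. Sh3bp5, whose product binds BTK, rose by 0.63 in RE/Ovx (adjusted p = 0.0285 by edgeR) and by 0.74 in NE/Ovx (adjusted p = 0.0402). Vav3, an exchange factor of many blood cells, fell by 0.45 in RE/Ovx (adjusted p = 0.0367). All calls of this list were lost without Sham rat 12, where Sh3bp5 had 0.51 in RE/Ovx (adjusted p = 0.0634) and 0.61 in NE/Ovx (adjusted p = 0.0795) and Vav3 had -0.45 in RE/Ovx (adjusted p = 0.0684). Of 25 further genes of mature B cells and homing, 0 rose and 2 fell in RE/Ovx by the adjusted p. In NE/Ovx 0 passed, and 9 had an unadjusted p under 0.05. At the study's thresholds 9 were higher and 2 lower in RE/Ovx, against 14% and 9.17% of all genes. In NE/Ovx 7 were higher and 2 lower, against 11.3% and 6.52%. The median log2 fold changes of this list were 0.40 in RE/Ovx and 0.26 in NE/Ovx, and 0.26 and 0.054 without Sham rat 12. Tnfsf13, which encodes the plasma cell factor APRIL and is made by myeloid cells, fell by 0.65 in RE/Ovx (adjusted p = 0.0146 by edgeR). It fell by 0.71 there without Sham rat 12 (adjusted p = 0.0254), where 1 gene of the list rose and 2 fell by the adjusted p.

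Markers of other cell types moved as well. Of 10 adipocyte markers, 9 rose in RE/Ovx against Sham and 4 in NE/Ovx, and their summed level was 543 to 763 CPM in RE/Ovx rats, 456 to 581 CPM in NE/Ovx rats and 203 to 313 CPM in Sham rats. Of the 10, 7 rose in RE/Ovx and 1 in NE/Ovx without Sham rat 12. Lpl, which encodes lipoprotein lipase, rose by 1.43 in RE/Ovx (adjusted p = 0.0160 by edgeR). Of 13 neutrophil markers, 6 fell in RE/Ovx by the adjusted p, including S100a9 and S100a8, subunits of calprotectin, and 8 without Sham rat 12. In NE/Ovx 0 passed and 6 were lower at the study's thresholds, and the summed level was 4614 to 6920 CPM in RE/Ovx rats, 6206 to 7064 CPM in NE/Ovx rats and 8041 to 13451 CPM in Sham rats. Of 11 erythroid markers 0 passed in either comparison with Sham by edgeR, with an unadjusted p under 0.05 for 1 in RE/Ovx and 5 in NE/Ovx, at 31172 to 51779 CPM in RE/Ovx rats, 37753 to 49373 CPM in NE/Ovx rats and 53424 to 57346 CPM in Sham rats. Of 9 osteoblast markers 2 rose in each comparison with Sham, and 3 in RE/Ovx and 0 in NE/Ovx without Sham rat 12. Their summed level was 18245 to 28979 CPM in RE/Ovx, 16356 to 26801 CPM in NE/Ovx and 6912 to 9730 CPM in Sham rats. Col1a1 alone had 15607 to 25414, 14462 to 23781 and 5239 to 7466 CPM in these groups. As mean log2 CPM centred on the 9 rats, the list stood at 0.13 to 0.58, -0.245 to 0.41 and -0.74 to -0.259. Of 8 megakaryocyte markers 2 fell in RE/Ovx and 0 passed in NE/Ovx, where 6 were lower at the study's thresholds and 1 fell without Sham rat 12. Their summed level was 920 to 1101 CPM in RE/Ovx rats, 888 to 1047 CPM in NE/Ovx rats and 1098 to 1514 CPM in Sham rats. Of 10 proliferation genes 0 passed in either comparison with Sham by edgeR, with an unadjusted p under 0.05 for 1 in RE/Ovx and 7 in NE/Ovx, all lower. Their summed level was 3143 to 3891 CPM in RE/Ovx rats, 2952 to 3826 CPM in NE/Ovx rats and 3876 to 4478 CPM in Sham rats. CPM are shares of a library, and the part of these shifts in the B cell values was not tested.

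T cells and macrophages also use members such as Lef1, Ikzf3, Syk and Btk. Of 16 T cell markers 1 rose in RE/Ovx by edgeR and 0 in NE/Ovx, where 2 had an unadjusted p under 0.05, with summed levels of 211 to 247 CPM in RE/Ovx rats, 205 to 224 CPM in NE/Ovx rats and 136 to 190 CPM in Sham rats. The marker that rose was Thy1, which stromal cells carry too, while the T cell receptor chain gene Cd3e stood at 1.17 to 3.06 CPM over all rats. Of 11 macrophage markers 0 passed in either comparison by edgeR, with an unadjusted p under 0.05 for 1 in RE/Ovx and 0 in NE/Ovx, at 564 to 665 CPM in RE/Ovx rats, 614 to 678 CPM in NE/Ovx rats and 492 to 815 CPM in Sham rats. Of 16 plasma cell genes, Jchain and the immunoglobulin genes Ighm, Ighg, Igha and Igkc were not tested. Pou2af1, Irf4 and Cd38, among the 11 tested, are members themselves. The median log2 fold change of the 11 was 0.069 in RE/Ovx and 0.026 in NE/Ovx against Sham. That of 8 germinal centre genes was -0.18 in each. Skeletal muscle markers, at 6087 to 9072 CPM in RE/Ovx rats and 12581 to 16063 CPM in NE/Ovx rats, had a median of -0.95 in RE/Ovx against NE/Ovx, and 0 of 8 passed by edgeR, with an unadjusted p under 0.05 for 6.

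**Figure D5:**
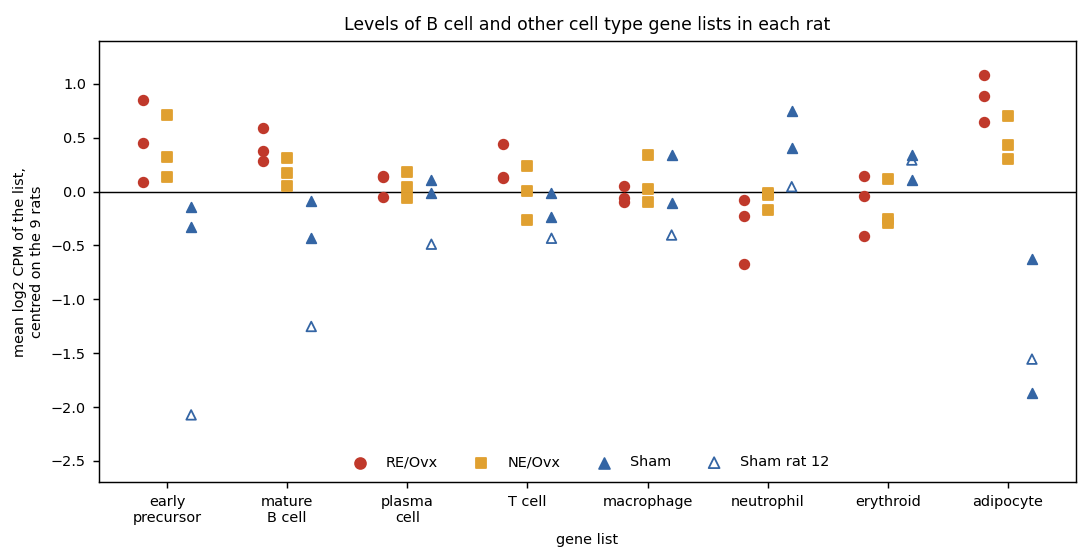
Mean log2 CPM of each gene list centred on the 9 rats (RE/Ovx circles, NE/Ovx squares, Sham triangles, with Sham rat 12 hollow). Both B cell lists and the adipocyte list are lower in all Sham rats, neutrophil markers are higher, and Sham rat 12 is lowest in the precursor list at -2.07.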

How the data were processed

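RNA-seq of left tibias of 9 rats, 3 per group, was analysed. Replicates are separate rats. The edgeR p-values set a group difference against the spread between these rats only, estimated over all 3 groups with information shared across genes. The authors deposited whole-number read counts per gene; the submitters' notes name Trimmomatic, HISAT2, StringTie, Bowtie2 and DESeq with Rnor_6.0, without versions. The FPKM values the authors deposited hold the same counts (relative spread of their ratio up to 3.8e-09). The sources used here do not give whether reads were counted by strand.

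Counts were tested in R 4.3.3 with edgeR 4.0.16 (filterByExpr, TMM factors of 0.962 to 1.04, quasi-likelihood test) in 1 fit of 9 libraries, with Benjamini-Hochberg adjustment over 14520 genes. The study tested with DESeq2. Levels of lists are means of log2 CPM at prior count 2. Alternatives were DESeq2 1.42.0, other scalings and filters, fits of only the groups compared, limma 3.58.1 on log2(FPKM + 1) or log2(FPKM + 0.1), and leaving out each rat. Results without Sham rat 12 for lists and single genes were added after seeing the data. In simulated counts, the share of 2-fold changes recovered was 62.7% in NE/Ovx against Sham, 58.2% in RE/Ovx against NE/Ovx and 68.7% in RE/Ovx against Sham. The changed genes were drawn at random from all genes tested, each with its own spread. These shares therefore need not hold for the members.

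The members and all gene lists, written by hand, were chosen with earlier results of these data known. Full statistics went to up to 12 members of smallest p in each comparison with Sham, up to 4 in RE/Ovx against NE/Ovx, and Rag1, Rag2, Dntt, Vpreb1, Igll1, Ms4a1, Cr2 and Fcer2. Other pathway lists gave up to 3 genes of smallest p and marker lists their 2 most abundant. Pax5 and other members with statistics outside this rule were named after their values were seen. So were Cd79a and Cd79b in NE/Ovx against Sham, and the T cell marker Cd3e, which is not a member. Exact permutation of 3 against 3 rats cannot give a p below 0.1. Sequences are from RefSeq (GRCr8); 34 of 35 symbols matched its gene table. Figures used Python 3.11.15 and matplotlib 3.10.9. Some genes of the other pathway lists that the rule would name are counted but not reported here.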

Additional observations from a re-analysis of the deposited data

How the results depend on the processing

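In RE/Ovx against Sham, 14 members were called by DESeq2, 1 with only both groups in the fit, 1 with limma on log2(FPKM + 1) and 5 with log2(FPKM + 0.1), against 9 reported, and 0 to 17 when a rat was left out. In NE/Ovx against Sham, 10 were called by DESeq2 and 2 without a filter, against 0 reported, and 0 to 9 when a rat was left out. The members at the study's thresholds then numbered 12 to 24. Shares of all genes called in these alternative fits are not reported here, apart from those given above for rats left out. Without them, these counts are not read as a result about the members. In RE/Ovx against NE/Ovx, 2 members were at the study's thresholds with only both groups in the fit, against 1 reported, and 0 to 2 when a rat of these groups was left out. Without Sham rat 12, which shares the fit, 3 were, against 2.13% of all genes higher. The shares in the other fits of this comparison are not reported here. The medians of the members ranged over 0.71 to 1.41 in RE/Ovx against Sham, 0.56 to 1.25 in NE/Ovx against Sham and -0.039 to 0.24 in RE/Ovx against NE/Ovx. Of the 50 results for named members, the alternatives that left out no rat gave 445 values in the same direction and 2 in the other, in NE/Ovx against Sham: 0.027 for Fcer2 with library totals and 0.0017 for Cr2 with log2(FPKM + 0.1). Leaving out rats turned the same 2 genes (Cr2 -0.24 to 0.059, Fcer2 -0.26 to 0.36) and, in RE/Ovx against NE/Ovx, Rag1 (-0.030 to 0.26), Rag2 (-0.037 to 0.33), Dntt (-0.097 to 0.29) and Vpreb1 (-0.69 to 0.21). The causes were not tested. No paired analysis was possible because the groups hold separate rats, and a rat number shared between groups, such as 8, does not pair them. Low counts limit Vpreb1 and Fcer2.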
